A study of Zea mays with 6 samples.

Results

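Genes of maize (Zea mays) known for the dwarf plants their mutants give were followed here, 3 of gibberellin synthesis and 2 that encode the DELLA proteins gibberellin acts against. They were chosen by identifier: an1 (Zm00001d032961), d3 (Zm00001d045563), d1 (Zm00001d039634), d8 (Zm00001d033680) and d9 (Zm00001d013465). All 5 were listed among the 46430 genes of the deposited count files, and all 5 passed the filter on low counts, which left 22135 genes for testing. The libraries come from leaves of the inbred line W9706 and of the inbred line B73, from which the reference genome was made and which the labels mark as wild type. Both lines were on day 7 of drought, and each had 3 libraries of total RNA from the third leaf of seedlings raised in soil to the stage of 3 leaves. Watered plants were not analysed here, so the values compare the lines under drought and give no response to it.

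Gibberellins are growth hormones that drive the elongation of leaves and stems. The product of an1, an ent-copalyl diphosphate synthase, makes the first committed step of the pathway in the plastid. The product of d3, a cytochrome P450, oxidises ent-kaurenoic acid towards the first gibberellin, and that of d1, a gibberellin 3-oxidase, makes the bioactive hormone. DELLA proteins, the products of d8 and d9, hold growth back until gibberellin and its receptor cause them to be broken down. Loss of an1, d3 or d1 gives dwarf maize that grows taller when gibberellin is applied, while dominant mutant alleles of d8 and d9 give dwarfs that do not answer to it. DELLA activity is controlled largely through the stability of the protein, which RNA counts do not measure.

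Assigned counts ranged from 21084151 to 32088105 per library. Log2 CPM correlated at 0.970 to 0.985 between libraries of a line and at 0.897 to 0.943 between lines. The TMM factors, which correct library sizes for composition, separated the lines, at 1.10 to 1.11 in W9706 and 0.893 to 0.922 in B73. Levels below are CPM, counts scaled to the library's size, with TMM factors applied unless library totals are named. The RefSeq gene table used for names held 21 of 27 symbols of markers for leaf, shoot apex, root and seed, but paired 0 of them with an identifier of the files, so the labelled tissue could not be checked against its markers. The names of the 5 genes were taken with the identifiers by which they were chosen; that table holds all 5 names but pairs none with an identifier of the files.

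One of the 5 genes, d8, passed the test between the lines, and it fell in W9706 by a small amount with TMM scaling, a direction that library size alone did not keep (log2 fold change of 0.0093). The log2 fold changes of d3, d1 and d9 were also negative and that of an1 was positive, none of them past the threshold (edgeR quasi-likelihood test with Benjamini-Hochberg adjusted p under 0.05). Over all genes tested, 34.2% were called in either direction and 19% as lower in W9706, so 1 call among 5 genes is no excess over that background. With the replicate number as a block, d1 passed as well as d8, which made 2 of 5 genes beside 36.4% of all genes tested. The median log2 fold change of the 5 genes was -0.29, against 0.01 over all genes tested. The median size of their log2 fold changes was 0.33, against 0.36 over all genes tested.

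**Figure D1:**
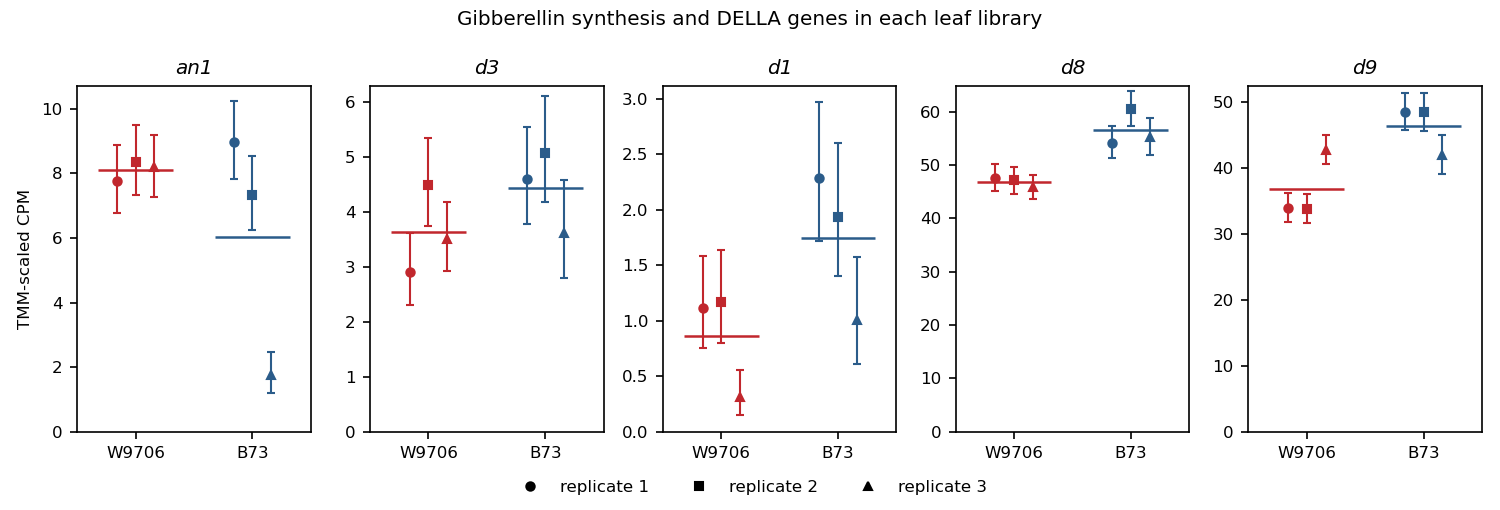
TMM-scaled CPM of an1, d3, d1, d8 and d9 in each library of W9706 (left, red) and B73 (right, blue), with exact 95% Poisson intervals of the counts as bars and the line's mean as a horizontal stroke. The W9706 libraries lie below the B73 libraries without overlap for d8 alone, and B73 replicate 3 lies far below the other libraries for an1.

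an1, the gene of the entry step, had 7.77, 8.35 and 8.19 CPM in W9706 replicates 1 to 3, against 8.97, 7.33 and 1.75 CPM in B73 replicates 1 to 3. The 3 W9706 libraries were close together and lay between the 2 highest B73 libraries, while B73 replicate 3 stood far below all others. That library held 33 an1 counts, with a 95% Poisson interval of 1.21 to 2.46 CPM that does not reach the intervals of the other libraries, and B73 replicate 1 was 5.11-fold above it. W9706 averaged 8.10 ± 0.30 CPM and B73 6.02 ± 3.78 CPM (± SD, 3 libraries a line). Its log2 fold change of 0.42 ± 0.49 (SE) had an edgeR adjusted p of 0.551. Its 95% interval, 0.592-fold to 3.01-fold, spans both directions. Without B73 replicate 3 the B73 mean was 8.15 CPM and the log2 fold change -0.0040 ± 0.15 (SE), so the sign of the difference rests on that library. By library totals, with no TMM factors, the W9706 libraries had 8.62, 9.17 and 9.01 CPM of an1, against 8.11, 6.75 and 1.57 CPM in B73. On that scale every W9706 library lay above every B73 library for an1, as it did for 46% of all genes tested.

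d3, whose P450 acts further down the pathway, had 2.91, 4.49 and 3.51 CPM in W9706 replicates 1 to 3, against 4.61, 5.08 and 3.61 CPM in B73 replicates 1 to 3. The lines overlapped, with W9706 replicate 2 above B73 replicate 3. W9706 averaged 3.64 ± 0.80 CPM and B73 4.43 ± 0.75 CPM (± SD, 3 libraries a line). Its log2 fold change of -0.29 ± 0.23 (SE) had an edgeR adjusted p of 0.367 and a 95% interval of 0.569-fold to 1.18-fold. A change of d3 by 2-fold in either direction therefore lies outside the interval. By library totals the means were 4.01 ± 0.86 CPM in W9706 and 4.02 ± 0.74 CPM in B73.

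d1, the gene of the activating 3-oxidase, had the lowest counts of the 5, 11 to 55 per library. It had 1.12, 1.17 and 0.312 CPM in W9706 replicates 1 to 3, against 2.28, 1.93 and 1.01 CPM in B73 replicates 1 to 3. Replicate 3 was the lowest library in both lines, and B73 replicate 3 lay below W9706 replicates 1 and 2, so the lines overlapped. Between libraries of the same replicate number, W9706 was lower in 3 of 3 pairs, with log2 ratios of -1.03, -0.73 and -1.70, and it was lower in 3 of 3 pairs by library totals as well. With TMM, W9706 was also lower in 3 of 3 pairs for d3 and d8, in 2 for d9 and in 1 for an1. By library totals it was lower in 1 pair for d3 and d8, in 2 for d9 and in 0 for an1. The share of all genes lower in 3 of 3 pairs was not computed. W9706 averaged 0.865 ± 0.479 CPM and B73 1.74 ± 0.66 CPM (± SD, 3 libraries a line).

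The log2 fold change of d1 was -1.04 ± 0.52 (SE), larger in size than that of 84.1% of all genes tested, with an edgeR adjusted p of 0.163. That rank is over genes of every abundance and was not taken among genes with counts as low as those of d1. Its 95% interval ran from 0.212-fold to 1.12-fold. With the replicate number as a block the log2 fold change was -1.09 ± 0.35 (SE) and passed the threshold (edgeR adjusted p of 0.0483). Leaving out W9706 replicate 3, where d1 had 11 counts, gave -0.62 ± 0.41 (SE) in the unblocked fit.

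The DELLA gene d8 had 47.7, 47.1 and 45.9 CPM in W9706 replicates 1 to 3, against 54.2, 60.5 and 55.3 CPM in B73 replicates 1 to 3. Every W9706 library lay below every B73 library, a separation found for 50.6% of all genes tested. W9706 averaged 46.9 ± 0.93 CPM and B73 56.7 ± 3.36 CPM (± SD, 3 libraries a line). With TMM scaling, though not with library size alone, d8 fell by 0.27 ± 0.08 (SE) on the log2 scale in W9706, 0.827-fold with a 95% interval of 0.725-fold to 0.944-fold, at an edgeR adjusted p of 0.0343. The call was lost without any 1 of the 6 libraries, with edgeR adjusted p of 0.0519 to 0.112 and log2 fold changes of -0.30 to -0.21.

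The difference in d8 is one relative to other genes. By library totals d8 had 52.9, 51.8 and 50.4 CPM in W9706 replicates 1 to 3, against 49.0, 55.7 and 49.3 CPM in B73 replicates 1 to 3, and the lines overlapped. With library size alone its log2 fold change was 0.0093 ± 0.09 (SE), while the median over all genes tested moved to 0.29. Set against the median of all genes, d8 was at -0.28 with TMM and at -0.28 with library size alone. A change of scaling moves all genes by nearly the same amount, so this match is given by construction.

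The second DELLA gene, d9, had 33.9, 33.8 and 42.7 CPM in W9706 replicates 1 to 3, against 48.5, 48.4 and 41.9 CPM in B73 replicates 1 to 3. Replicates 1 and 2 of W9706 lay below all B73 libraries, while W9706 replicate 3 lay just above B73 replicate 3. W9706 averaged 36.8 ± 5.10 CPM and B73 46.3 ± 3.80 CPM (± SD, 3 libraries a line). On the log2 scale the change was -0.33 ± 0.12 (SE), that is 0.795-fold with a 95% interval of 0.658-fold to 0.961-fold, with an edgeR p of 0.0233 and an adjusted p of 0.0627. Leaving out W9706 replicate 3 gave -0.45 ± 0.10 (SE) and brought d9 past the threshold (edgeR adjusted p of 0.0143). In that fit 30% of all genes tested were called. With library size alone its log2 fold change was -0.048 ± 0.12 (SE), at an edgeR adjusted p of 0.763. Set against the median of all genes, d9 was at -0.34 with TMM and at -0.34 with library size alone, a match again given by construction.

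The sum of d8 and d9 was 81.5, 80.9 and 88.5 CPM in W9706 replicates 1 to 3, against 102.7, 108.9 and 97.2 CPM in B73 replicates 1 to 3. On this scale the sums of the lines did not overlap, which held for 50.6% of the single genes tested. By library totals the sum was 90.5, 88.9 and 97.4 CPM in W9706 replicates 1 to 3, against 92.9, 100.3 and 86.7 CPM in B73 replicates 1 to 3, and the lines overlapped. The sum is given as a description with no test.

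**Figure D2:**
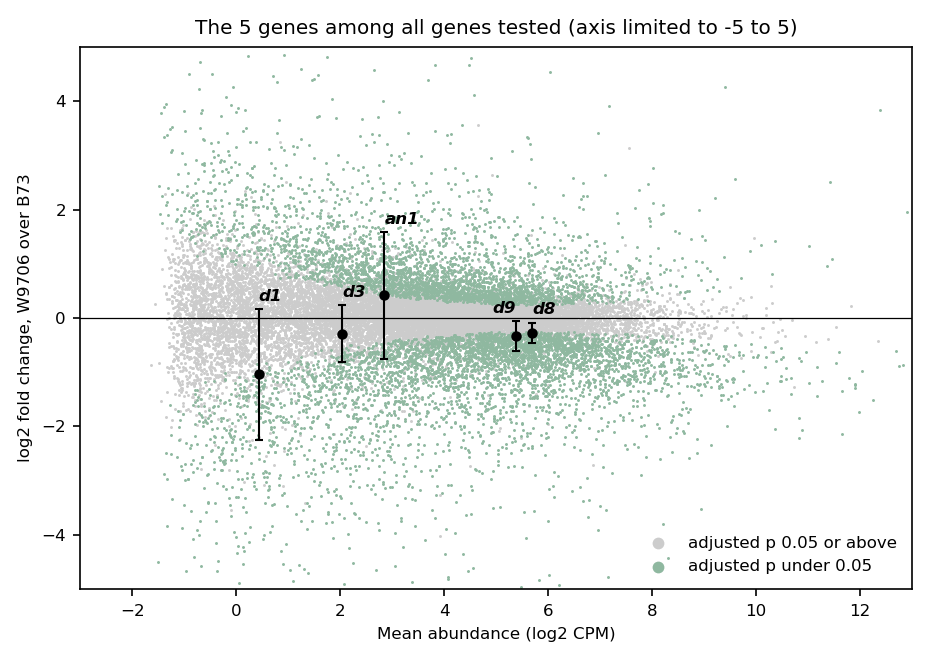
Log2 fold change (W9706 over B73) against mean abundance (log2 CPM) for the 22135 genes tested, grey for adjusted p of 0.05 or above and green for adjusted p under 0.05, with the 5 genes in black and their 95% intervals. The intervals of an1 (-0.76 to 1.59) and d1 (-2.24 to 0.17) are wide, and those of d8 (-0.46 to -0.08) and d9 (-0.60 to -0.06) lie below 0; 52 genes lie beyond the plotted range of -5 to 5.

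The 5 genes differed in how much their libraries varied. The coefficient of variation of d8 was 1.97% in W9706 and 5.93% in B73, where counting alone gives 2.65% and 2.85%. For d9 it was 13.9% in W9706 and 8.20% in B73, against 2.97% and 3.15% from counting. For d3 it was 21.9% in W9706 and 16.9% in B73, against 9.51% and 10.1% from counting. For d1 it was 55.5% in W9706 and 37.8% in B73, against 20% and 16% from counting. For an1 it was 3.68% in W9706 and 62.9% in B73, against 6.36% and 8.53% from counting. The spread between libraries was below that of counting for an1 and d8 in W9706 and above it for the other genes and lines, and it holds any difference between the plants or samples as well. The biological coefficient of variation that edgeR fitted was 42.9% for an1, 20.3% for d3, 42.4% for d1, 10.0% for d8 and 12.3% for d9, beside a median of 15.5% over all genes tested.

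Ratios inside a library do not depend on how libraries are scaled. Those to d8 carry any difference in d8 itself, whose log2 fold change with TMM was -0.27, beside -0.29 for d3. Per 100 d8 counts, an1 had 16.3, 17.7 and 17.9 counts in W9706 replicates 1 to 3, against 16.5, 12.1 and 3.17 counts in B73 replicates 1 to 3. W9706 replicate 1 lay just below B73 replicate 1, and the other B73 libraries lay below all W9706 libraries. Per 100 d8 counts, d3 had 7.77 ± 1.71 counts in W9706 and 7.81 ± 1.10 counts in B73 (SD, n = 3 each), a difference far inside the spread between replicates. Per 100 d8 counts, d1 had 2.34, 2.48 and 0.680 counts in W9706 replicates 1 to 3, against 4.21, 3.19 and 1.83 counts in B73 replicates 1 to 3. As with the scaled levels, d1 was lower in W9706 in each pair of the same replicate number, and the lines overlapped through B73 replicate 3.

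d9 made up 41.6%, 41.8% and 48.2% of the DELLA counts (d8 plus d9) in W9706 replicates 1 to 3, with Wilson 95% intervals of 39.5 to 43.6, 39.8 to 43.8 and 46.5 to 50.0. In B73 replicates 1 to 3 it made up 47.2%, 44.4% and 43.1%, with intervals of 45.2 to 49.2, 42.5 to 46.4 and 40.9 to 45.4. The highest and the 2 lowest shares were all in W9706, so the lines overlapped fully. The mean shares were 43.8 ± 3.78% in W9706 and 44.9 ± 2.09% in B73 (SD, n = 3 each). W9706 replicate 3 stood above the other W9706 libraries by more than its counting interval, in the share as in the level of d9. Transcript lengths were not used here, so the share says nothing of which of the genes is expressed more.

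**Figure D3:**
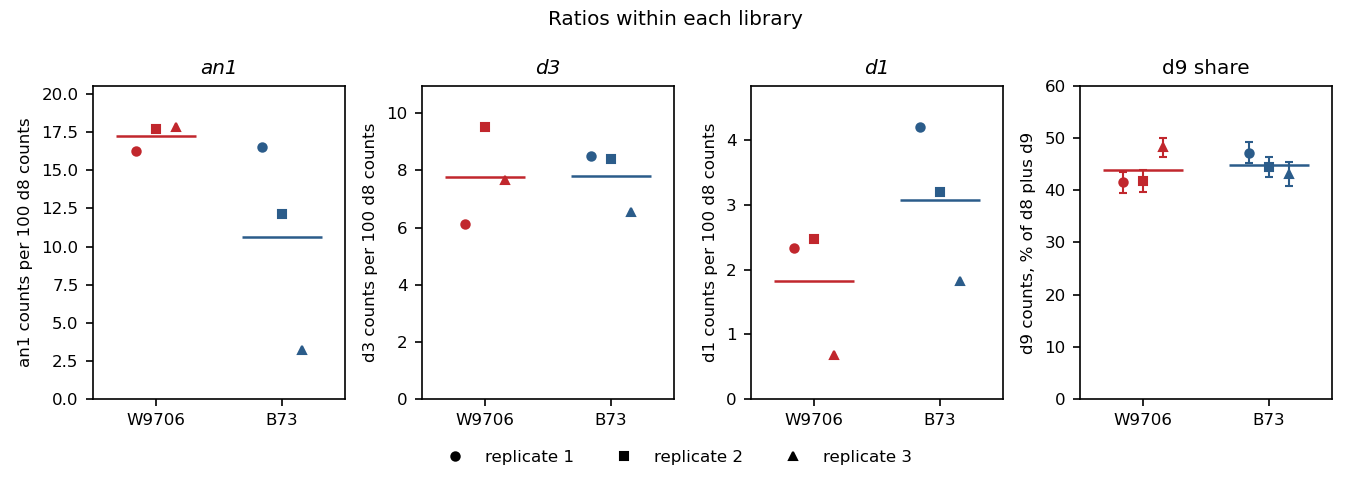
Counts of an1, d3 and d1 per 100 d8 counts and d9 as a percentage of d8 plus d9 counts, in each library of W9706 (left, red) and B73 (right, blue), with line means as strokes and Wilson 95% intervals on the share. The lines overlap in all 4 ratios, with B73 replicate 3 lowest for an1 and W9706 replicate 3 lowest for d1.

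With TMM, B73 replicate 3 was the lowest B73 library for an1, d3, d1 and d9, though not for d8. It also had the fewest assigned counts of the 6 libraries (21084151) and the fewest genes detected (25833). W9706 replicate 3 was the lowest W9706 library for d1 and d8 and the highest for d9. The other W9706 libraries lay at the extremes as well. Replicate 2 was the highest for an1, d3 and d1 and the lowest for d9. Replicate 1 was the lowest for an1 and d3 and the highest for d8. The labels do not say what the replicate numbers stand for.

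In 30 of 30 values (5 genes in 6 libraries) the 2 strand columns summed to the unstranded count. The kit does not mark strand, so reads from an antisense partner cannot be told apart. The DELLA genes are paralogs, and reads that match both equally well may be missing, since the files list 0 multimapping reads in every library. Reads of W9706 that fail to align to gene models of B73 would also lower its counts, which was not measured.

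The genes whose log2 CPM ran most closely with these across the 6 libraries were sought among those that averaged 1 CPM or more in W9706 and in B73. There were 19114 such candidates for an1 and d8 and 19115 for d1, and the highest correlation among them is given. For an1 the nearest was Zm00001d051120 (Pearson r of 0.997 over 6 libraries), for d1 Zm00001d022622 (r of 0.998) and for d8 Zm00001d048907 (r of 0.997). Zm00001d048907 fell by 1.36 on the log2 scale, to 24.3 CPM in W9706 against 62.5 CPM in B73, with an edgeR adjusted p of 0.00287. Zm00001d051120 and Zm00001d022622 did not pass the threshold (edgeR adjusted p of 0.433 and 0.165). Above a correlation of 0.9 there were 209 genes for an1, 320 for d1 and 1454 for d8. The highest of so many correlations over 6 libraries is high by selection. How many would pass 0.9 with no relation was not computed. These correlations describe 6 libraries of 2 lines and carry the difference between the lines. Those of an1 can rest largely on B73 replicate 3, the library far below the others for that gene. No name is paired with these identifiers in the sources used here.

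Of 38 other symbols of gibberellin synthesis, breakdown, perception and signalling, 3 were in the gene table and 0 were paired with an identifier of the files. Other genes of the pathway were therefore not analysed here.

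**Figure D4:**
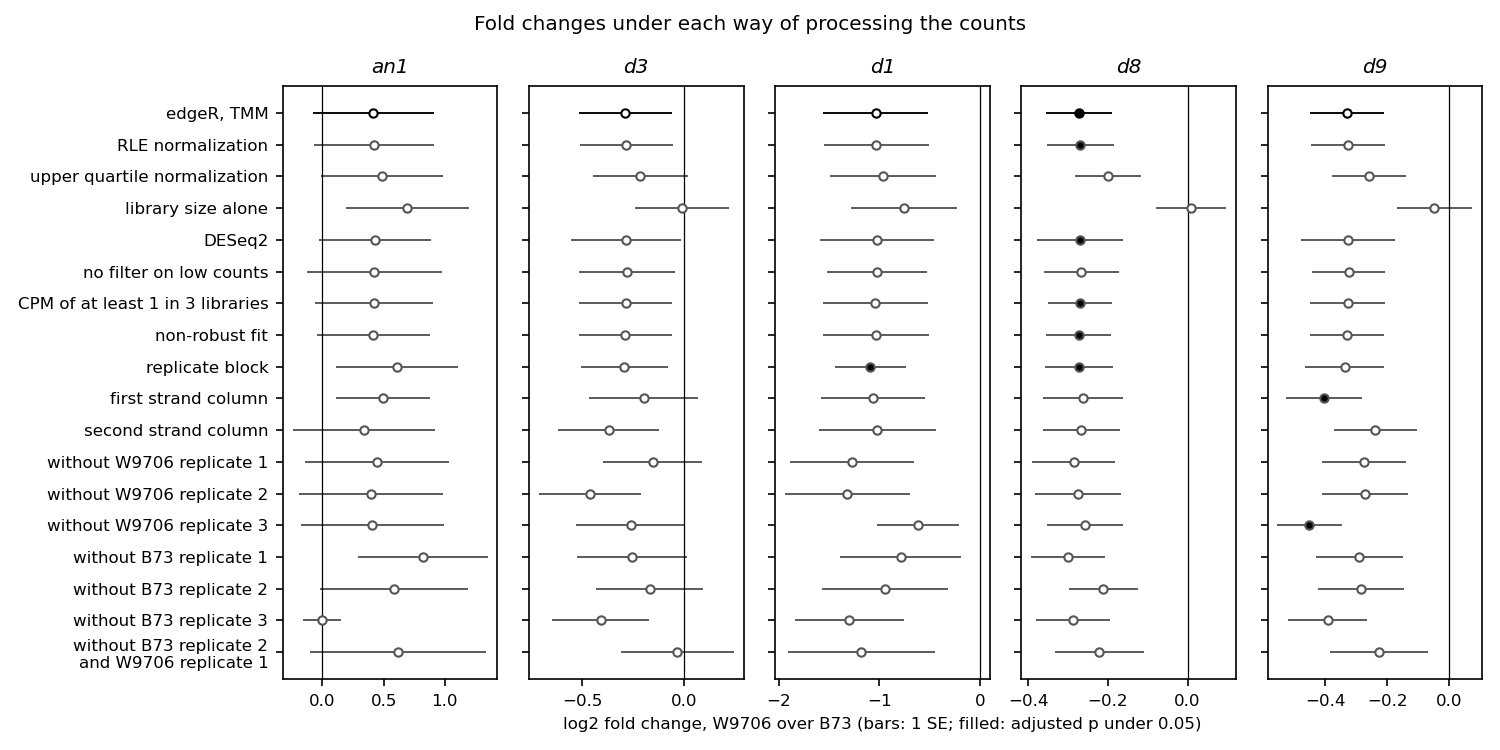
Log2 fold changes of the 5 genes (W9706 over B73, bars of 1 SE) in the edgeR fit with TMM and under 17 other ways of processing the counts, filled where the adjusted p is under 0.05. d3, d1 and d9 stay below 0 throughout, d8 does so except with library size alone (0.0093), and an1 stays above 0 except without B73 replicate 3 (-0.0040).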

How the data were processed

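The deposited values are raw read counts for each gene, 1 file a library, laid out as STAR writes its gene counts; the submitters' processing notes name STAR. Which version, build and annotation were used is not given in the sources used here. Per the labels, libraries were made with the NEBNext Ultra kit. The unstranded column was used, without the 4 summary lines. Unmapped reads were 13.0% to 13.5% of those listed in W9706 and 12.7% to 13.8% in B73. Reads in no gene were 4.18% to 4.33% in W9706 and 3.68% to 3.79% in B73, without overlap.

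The test was edgeR 4.0.16 under R 4.3.3 (filterByExpr, TMM, robust quasi-likelihood test, all 6 libraries, line as the sole term, Benjamini-Hochberg over 22135 genes), tested on simulated data first. Standard errors were derived from the F statistic, and intervals from its degrees of freedom. Intervals on counts and shares cover counting error only. Log2 CPM for correlations used a prior count of 2. DESeq2 1.42.0, other scalings and filters, each strand column, a replicate block and leaving out libraries were alternatives. Same-numbered libraries of the lines deviated together slightly, with correlations of deviations from the line means of 0.218, 0.111 and 0.131, each over 0.1. Other pairs gave -0.228 to 0.107. The lowest same-numbered value lay close to the highest of the others. Neither these data nor the labels therefore settle whether the numbers pair the libraries. The main fit took no pairing, and the replicate block and the same-numbered pairs are given beside it. The labels do not say whether replicates are separate plants, and p-values speak only of the spread among these samples, possibly technical. The genes named are the 5 chosen by identifier and the closest gene in pattern to each, of which 3 are printed. The 5 genes, the lists and the alternatives were chosen with earlier results of these data known.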

Additional observations from a re-analysis of the deposited data

How the results depend on the processing

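The 17 alternatives called d8 in 5 cases, d9 in 2, d1 in 1 and an1 and d3 in 0. The log2 fold change of d8 was no longer past the threshold with upper quartile scaling (-0.20), no filter on low counts (-0.27), the first (-0.26) or second (-0.27) strand column alone, which hold fewer counts, or without B73 replicate 2 and W9706 replicate 1 together (-0.22), and it turned to 0.0093 with library size alone. That of an1 turned to -0.0040 without B73 replicate 3. d1 passed with the replicate block (-1.09), and d9 passed in the first strand column (-0.40), where 32.1% of all genes tested were called. The replicate block changed no other call of the 5 genes. The number of the 5 genes called, 1, became 2 with the replicate block (36.4% of all genes tested called) and 0 with upper quartile scaling (36.1%), library size alone (48.7%), no filter (24.6%), the second strand column (31.9%) or the 2 libraries left out together (23.7%). Leaving out a replicate gave log2 fold changes of -0.0040 to 0.82 for an1, -0.46 to -0.15 for d3 and -1.32 to -0.62 for d1. For d8 they were -0.30 to -0.21 and for d9 -0.45 to -0.27. These fits called 0 to 1 of the 5 genes, beside 5133 to 6751 of all genes, which is 22.8% to 30% of those tested. The difference in d9 share was -3.26 to 0.064 percentage points. The cause of a lost or gained call was not tested, also where a setting left fewer counts or libraries. The 95% intervals do not exclude a 2-fold lower level of d1, which had 11 to 55 counts per library, or a 2-fold higher level of an1 in W9706.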
